A study of Mus musculus with 233 samples.

Results

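The comparison described here is the genotype difference between striata that had received a huntingtin repressor for 6 months, injected at 6 months of age and collected at 12 months (the 6M_12M paradigm). It sets 8 libraries from zQ175 mice against 8 libraries from wild-type (WT) mice over every gene of the deposited count table, with the vector entries left out. These are 16 of the 46 libraries of the paradigm and 16 of the 233 libraries of the series, and 15523 genes had enough counts to be tested.

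The zQ175 nZFP group held heterozygous zQ175DN knock-in mice (one protocol label writes zQ175KI for the injections at 6 months), whose mouse Htt exon 1 is replaced on 1 chromosome by human HTT exon 1 with a long CAG tract, the other Htt allele being normal. The WT nZFP group held WT littermates. Both groups carried the same adeno-associated virus, called nZFP, which expresses the HA-tagged zinc finger repressor ZFP30645, aimed at expanded CAG repeats, under the human synapsin promoter hsyn. That promoter drives expression in neurons, while the libraries were made from bulk striatum with all its cells. Each group had 4 female and 4 male mice and 4 left and 4 right hemispheres, and the 16 libraries came from 16 mice. The opposite hemisphere of these mice had received a control virus, either DBD, an hsyn virus for the same protein lacking the domain that binds DNA, or Estop, which carries a stuffer that encodes no protein. Libraries of those hemispheres and of further mice formed the control groups zQ175 DBD (n = 8), zQ175 Estop (n = 8), WT DBD (n = 7) and WT Estop (n = 7) of the same paradigm.

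Huntington's disease is caused by an expanded CAG repeat in the huntingtin gene, and the medium spiny neurons of the striatum, which use GABA and project to the pallidum and nigra, are among the cells most affected. These neurons hold high levels of transcripts for dopamine, adenosine and cannabinoid signalling, cyclic nucleotide breakdown and peptide transmitters, and such transcripts decline in mouse models of the disease. Developmental transcription factors kept silent by Polycomb complexes in adult neurons form a second set known to change in such models.

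Library totals lay between 30023989 and 42157147 counts in the 16 libraries. The repressor entry stood between 349 and 918 CPM (counts per 1000000 counts of the library) in zQ175 nZFP libraries, with a median of 618, and between 196 and 889.5 CPM in WT nZFP libraries, with a median of 515. The groups overlapped (646 ± 168 CPM against 491 ± 264 CPM, SD, n = 8 each; two-sided exact permutation p = 0.18). No DBD or Estop library of the paradigm exceeded 15.9 CPM of this entry. A length index, the slope of a library's log2 deviation in CPM on log2 gene length, was low in 3 WT nZFP libraries (replicates 1 to 3, -0.179 to -0.154), and these 3 also held the least repressor transcript (196 to 237 CPM). WT nZFP replicate 4 had an index of 0.00 and replicates 5 to 8 had 0.08 to 0.13. Of the zQ175 nZFP libraries, replicate 1 had an index of -0.06 and the other 7 had 0.07 to 0.11 (exact permutation p = 0.12 for the group difference).

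**Figure D1:**
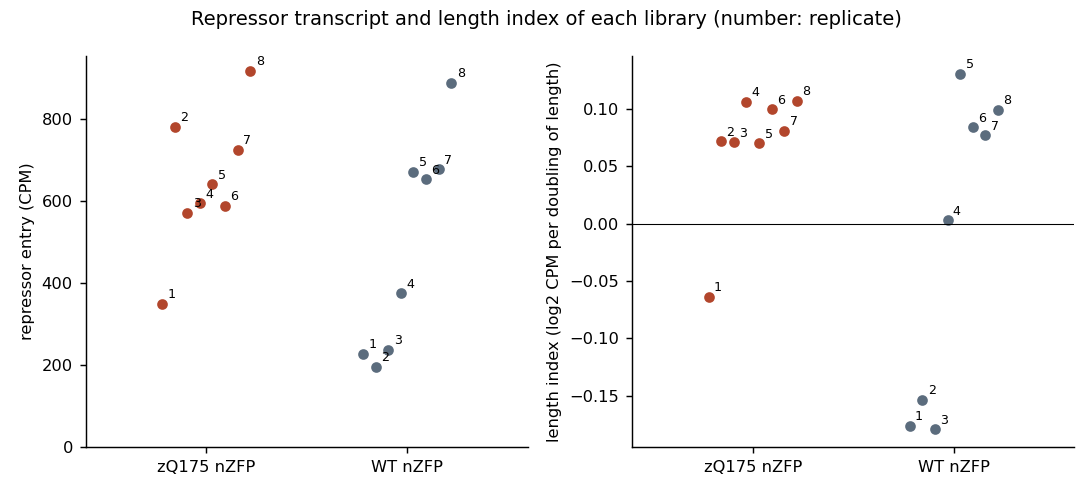
Repressor transcript in CPM (left panel) and length index (right panel) of each nZFP library of 6M_12M, with zQ175 nZFP in red, WT nZFP in grey and the replicate number beside each point. WT nZFP replicates 1 to 3 had the lowest values of both measures, at 196 to 237 CPM and -0.179 to -0.154.

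Htt itself (ENSMUSG00000029104, GRCm38 chromosome 5, 34761740 to 34912534) is counted over both alleles and all cells. It stood between 63.6 and 85.0 CPM in zQ175 nZFP libraries (median 79.7) and between 87.6 and 154 CPM in WT nZFP libraries (median 134). The groups did not overlap, and the 3 lowest WT values were those of replicates 1 to 3. The log2 fold change, zQ175 nZFP over WT nZFP, was -0.65 (SE 0.20, edgeR adjusted p = 0.017), and it was -0.88 (SE 0.064) once the index was added to the model. In the edgeR fit without the index, which gave -0.65 under nZFP, the genotype log2 fold changes of Htt under DBD and Estop were -0.53 and -0.50 (adjusted p = 0.064 and 0.085). Reads of the added entry Htt.HD, taken to be the expanded allele because its reads were concentrated in zQ175 libraries, were few: 0 in 5 of 8 zQ175 nZFP libraries and at most 2.03 counts in the others. Its level averaged 0.0139 ± 0.0204 CPM in zQ175 nZFP libraries, against 0.121 ± 0.0862 CPM in zQ175 DBD libraries and 0.0867 ± 0.0731 CPM in zQ175 Estop libraries (SD, n = 8 each). This was 11.5% of the DBD level (two-sided exact permutation p = 0.000466, 0.000932 adjusted over both controls) and 16.0% of the Estop level (p = 0.00793), with wide counting error at so few reads. The permutation test took libraries as independent, though 4 of the 8 zQ175 nZFP mice also gave a DBD and 4 an Estop hemisphere. WT nZFP and WT Estop libraries held up to 1.02 counts of this entry.

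The genotype comparison under nZFP asked which transcripts still differ between zQ175 and WT striata when both carry the repressor. With an adjusted p under 0.05, 2589 of 15523 genes differed (16.7%), 1231 of them higher (7.93%) and 1358 lower (8.75%) in zQ175 nZFP. Most of these differences were small, with median absolute log2 fold changes of 0.45 for higher and 0.41 for lower genes. A log2 fold change of at least 1 was reached by 171 higher and 113 lower genes. In 706 of the 15523 genes (4.55%) the 8 zQ175 nZFP libraries did not overlap the 8 WT nZFP libraries, with zQ175 nZFP higher in 322 (2.07%) and lower in 384 (2.47%). In bulk tissue, fewer cells of a type and less RNA per cell cannot be told apart. Once the index was added to the model, the counts were 2091 higher and 2168 lower genes, and without the libraries whose index was below 0 they were 1880 and 1869. The median exon length was 4506 bases for higher, 3908.5 bases for lower and 4314 bases for all tested genes, and 4482.5 and 4472 bases for higher and lower genes with the covariate.

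**Figure D2:**
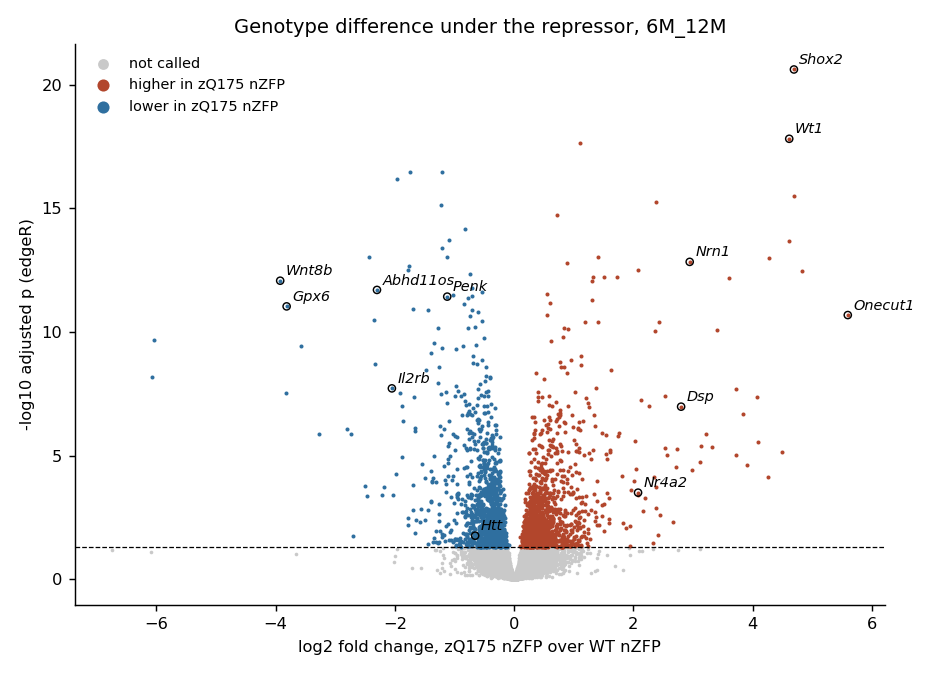
Genotype difference of each of the 15523 tested genes under nZFP, with the log2 fold change (zQ175 nZFP over WT nZFP) on the horizontal axis and the -log10 of the edgeR adjusted p on the vertical axis. The dashed line marks 0.05; the 1231 higher genes are red, the 1358 lower genes blue, and circled genes are named in the text.

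The largest rises among the genes of at least 1 CPM were in developmental transcription factors that were barely detected in WT nZFP striata. Onecut1, a homeobox factor of early neurons, stood between 1.20 and 6.37 CPM in zQ175 nZFP libraries (median 4.07) and between 0 and 0.202 CPM in WT nZFP libraries (median 0.0755). Its lowest zQ175 value was that of replicate 1, and the groups lay far apart (log2 fold change 5.60, SE 0.51, adjusted p = 2.1e-11). Shox2, a homeobox factor of limb and heart development, ranged between 6.41 and 10.8 CPM in zQ175 nZFP and between 0.0259 and 0.572 CPM in WT nZFP libraries (4.69, SE 0.20, adjusted p = 2.4e-21). Wt1, a zinc finger factor of kidney and gonad development, ranged between 4.01 and 6.20 CPM in zQ175 nZFP and between 0.0777 and 0.456 CPM in WT nZFP libraries (4.61, SE 0.24). The homeobox genes Hoxc4 and Hoxc5, which pattern the trunk, had log2 fold changes of 4.69 and 4.60, with WT medians of 0.0908 and 0.0910 CPM against zQ175 medians of 3.06 and 2.50 CPM. Such fold changes rest on a handful of WT reads, and their sizes carry that error.

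Over the whole list of homeobox and other developmental factors, 21 of 48 members had enough counts to be tested. Of these 16 rose and none fell, against 7.93% higher and 8.75% lower over all tested genes. The other 27 members did not pass the filter on low counts, and since a member silent in WT passes through the zQ175 libraries alone, these counts describe the measured members only. The median log2 fold change of the 21 was 2.72, against 0.00 over all genes tested. Without the filter 47 members had a value, 15 rose and none fell, and the median was 0.94. Of all 23802 genes in that fit, 1073 rose and 1156 fell. Beside the 5 genes above, the members that rose were Hoxc6, Hoxc8, Hoxd8, Onecut2, the POU factors Pou4f1 and Pou4f2, the neuronal bHLH factors Neurod1 and Neurod2, Pax6, En2 and Twist1, at 0.44 (Pax6) to 4.49 (Pou4f2). Summed over the list, levels were 51.2 to 88.0 CPM in zQ175 nZFP libraries (median 75.0) and 21.6 to 36.6 CPM in WT nZFP libraries (median 32.3), without overlap. The median was 4.63 under DBD and 5.23 under Estop, with 16 members called higher and none lower under each control virus. Over all tested genes 9.14% were called higher under DBD and 8.48% under Estop. The filter used all 6 groups, so a member could pass through the zQ175 DBD or Estop libraries alone. With the 2 nZFP groups alone 12 members passed and 9 rose, at a median of 2.24, as 1404 of all 14774 genes rose. The part of the filter in the contrast of 2.72 with 4.63 and 5.23 was not tested.

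The promoter of Onecut1 is shown as an example of a gene that rose from a level near 0, and that of Upb1 as a medium spiny neuron gene that fell. Both sequences are RefSeq windows of 300 bases, 250 before to 50 after the start, on the plus strand of GRCm38.p6, at chr9:74861671-74861970 for Onecut1 and chr10:75406661-75406960 for Upb1, with CG dinucleotides in capitals.
Onecut1: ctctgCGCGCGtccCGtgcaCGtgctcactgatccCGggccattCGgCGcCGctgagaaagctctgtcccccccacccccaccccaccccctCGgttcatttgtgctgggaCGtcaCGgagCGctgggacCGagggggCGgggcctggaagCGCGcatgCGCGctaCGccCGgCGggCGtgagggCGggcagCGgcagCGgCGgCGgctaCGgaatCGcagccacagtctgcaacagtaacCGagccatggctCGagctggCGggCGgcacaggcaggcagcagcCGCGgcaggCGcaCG
Upb1: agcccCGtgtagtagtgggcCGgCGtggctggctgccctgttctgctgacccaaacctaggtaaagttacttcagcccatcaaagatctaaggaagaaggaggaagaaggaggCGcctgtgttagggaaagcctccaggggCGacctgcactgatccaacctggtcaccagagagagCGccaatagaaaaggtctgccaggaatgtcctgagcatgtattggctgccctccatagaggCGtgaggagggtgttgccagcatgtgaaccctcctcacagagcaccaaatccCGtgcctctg
The Onecut1 window held 38 CG dinucleotides at a GC content of 73.0%, and the Upb1 window held 8 at 56.7%. The ratio of observed to expected CG was 0.951 for Onecut1 and 0.333 for Upb1. Of the 32851 promoters in the table, 33.5% had a GC content of at least 50% and a ratio of at least 0.6, as that of Onecut1 does. A comparison of this feature between groups of genes was not made, because promoters were at hand for only 75.5% of the tested genes.

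Other genes rose several-fold without belonging to that list. Nrn1, which encodes the neurite growth factor neuritin, stood between 5.90 and 16.7 CPM in zQ175 nZFP libraries (median 9.40) and between 0.570 and 2.04 CPM in WT nZFP libraries (median 1.24). The groups did not overlap (log2 fold change 2.94, SE 0.22, adjusted p = 1.5e-13). Dsp, the desmosome protein desmoplakin, ranged between 5.73 and 15.6 CPM in zQ175 nZFP libraries and between 0.453 and 3.35 CPM in WT nZFP libraries (2.80, SE 0.36). Sfmbt2, a Polycomb group protein, rose by 2.42 on the log2 scale, Kazald1, a secreted protein of the insulin-like growth factor binding family, by 2.39, and Klhl14, a kelch-domain protein, by 2.12. Fam196b rose by 2.09 and Klf14, an imprinted zinc finger factor, by 1.76, and the 8 libraries of each group did not overlap for any of these 7 genes.

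Genes of the clustered beta protocadherins, neuronal adhesion proteins encoded side by side in 1 cluster, rose together. Of 21 members, all measured, 16 rose and 1 fell, with a median log2 fold change of 0.58 (0.50 under DBD and 0.54 under Estop). Pcdhb2 stood between 4.82 and 7.21 CPM in zQ175 nZFP and between 1.99 and 3.05 CPM in WT nZFP libraries (1.16, SE 0.16). Pcdhb3 ranged between 6.02 and 8.33 CPM in zQ175 nZFP and between 1.61 and 3.97 CPM in WT nZFP libraries (1.24, SE 0.16), and Pcdhb9 rose by 0.62 (SE 0.062). The exception was Pcdhb8 at -0.53 (SE 0.14, adjusted p = 0.0065). These genes share long stretches of near-identical sequence, and the estimated counts divide such reads between them, so values of single members are uncertain. Among 28 genes of Polycomb complexes and H3K27 enzymes, the machinery that keeps developmental genes silent, 3 rose and 2 fell, and the median was 0.01. That share is near the 16.7% of all tested genes that differed. Cbx8, a chromobox subunit of Polycomb repressive complex 1, ranged between 17.6 and 21.5 CPM in zQ175 nZFP and between 7.24 and 12.1 CPM in WT nZFP libraries (0.90, SE 0.12). Phf1 rose by 0.16, while the chromobox subunit Cbx7 fell by 0.25 and the histone-binding Rbbp7 by 0.31. With the length index as a covariate, 6 Polycomb members were higher and 3 lower, beside 2091 higher and 2168 lower of all 15523 genes.

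**Figure D3:**
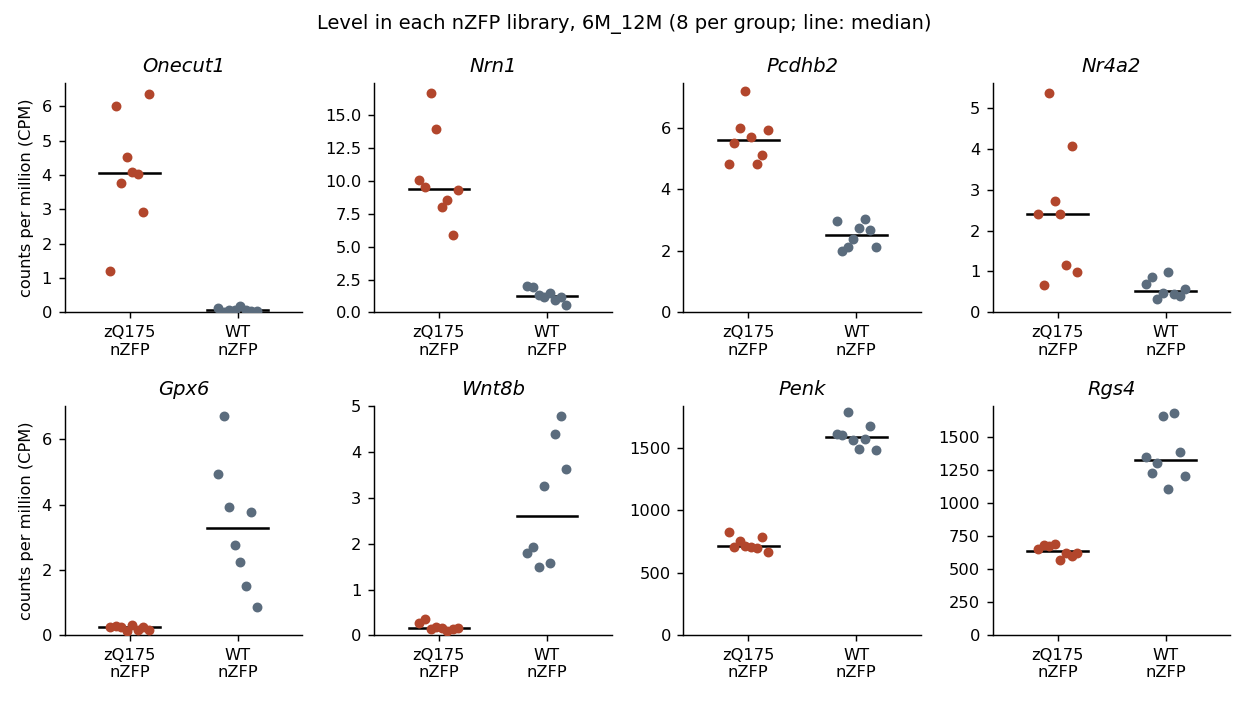
Levels in CPM of 8 named genes in the 8 zQ175 nZFP libraries (red, left) and the 8 WT nZFP libraries (grey, right) of 6M_12M, with a line at each median and axes that start at 0. The groups do not overlap except for Nr4a2, whose zQ175 libraries spread between 0.681 and 5.36 CPM.

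Transcripts of medium spiny neurons were lower in zQ175 nZFP striata. All 30 members of the shared identity list were measured, and all 30 had a log2 fold change below 0. Of them 20 fell and none rose, against 8.75% lower and 7.93% higher over all genes tested. The median was -0.45 against 0.00 over all genes tested. The summed level of the 30 members was 18614 to 20630 CPM in zQ175 nZFP libraries and 24146 to 31858 CPM in WT nZFP libraries, without overlap. Rgs4, a regulator of G-protein signalling, stood between 571 and 692 CPM in zQ175 nZFP libraries (median 638) and between 1107 and 1681 CPM in WT nZFP libraries (median 1325). Its log2 fold change was -1.09 (SE 0.078, adjusted p = 2.0e-14), with no overlap. Cnr1, the cannabinoid receptor CB1, ranged between 108 and 136 CPM in zQ175 nZFP and between 166 and 296 CPM in WT nZFP libraries (-0.98, SE 0.10). Pde1b, a calmodulin-dependent phosphodiesterase, fell by 0.60 (SE 0.054) and Kcnab1, a potassium channel beta subunit, by 0.54 (SE 0.045).

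Other classical markers of these neurons, chosen after their values were seen, fell too. Scn4b, a sodium channel beta subunit, ranged between 588 and 805 CPM in zQ175 nZFP and between 1082 and 1940 CPM in WT nZFP libraries (-1.15, SE 0.14). Pde10a, the striatal phosphodiesterase, fell by 0.74 (SE 0.12) and Ppp1r1b, which encodes DARPP-32, by 0.59 (SE 0.10). Members that did not pass included the transcription factors Bcl11b (-0.10) and Foxp1 (-0.01) and the adenylyl cyclase Adcy5 (-0.35). With the length index as a covariate 29 of the 30 members fell (median -0.49), beside 2168 of all 15523 genes. Without the libraries whose index was below 0, 29 of the 30 fell too (median -0.49), beside 1869 of all 15724 genes. Under DBD and under Estop 26 members fell, at medians of -0.65 and -0.66 (genes called lower: 9.14% under DBD and 8.92% under Estop).

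The indirect pathway consists of the medium spiny neurons that carry dopamine D2 receptors and project to the external pallidum. Its markers fell in 5 of 8 measured members and rose in none (median -0.57). Of all 15523 tested genes, 8.75% fell and 7.93% rose. Penk, the enkephalin precursor, stood between 666 and 828 CPM in zQ175 nZFP libraries (median 714) and between 1485 and 1782 CPM in WT nZFP libraries (median 1585). The groups lay far apart (-1.12, SE 0.096, adjusted p = 3.7e-12). Adora2a, the adenosine receptor of the indirect pathway, ranged between 320 and 419 CPM in zQ175 nZFP and between 569 and 680 CPM in WT nZFP libraries (-0.74, SE 0.068). Gpr6, an orphan receptor, fell by 0.75 (SE 0.099), and Upb1, an enzyme of pyrimidine breakdown, by 1.28 (SE 0.15). Drd2, the dopamine D2 receptor, ranged between 149 and 181 CPM in zQ175 nZFP and between 180 and 275 CPM in WT nZFP libraries, a slight overlap (-0.40, SE 0.12, adjusted p = 0.018). The list's median was -0.95 under DBD and -0.97 under Estop.

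Direct pathway markers, from the neurons that carry dopamine D1 receptors and project to the nigra, moved less evenly. Of 10 members 2 were lower and 1 higher, at a median of -0.04, against 8.75% lower and 7.93% higher over all tested genes. Drd1, the dopamine D1 receptor, ranged between 145 and 190 CPM in zQ175 nZFP and between 269 and 303 CPM in WT nZFP libraries (-0.71, SE 0.060, adjusted p = 1.7e-12). The mitochondrial serine transporter Sfxn1 fell by 0.31 (SE 0.054). Eya1, a developmental phosphatase, passed narrowly at 0.38 (adjusted p = 0.049), and not without the libraries whose index was below 0 (0.24, adjusted p = 0.11). Chrm4, the muscarinic M4 receptor, did not pass (-0.33, adjusted p = 0.20) but was at -0.51 (adjusted p = 7.0e-06) with the index in the model. Whether the direct and indirect lists differ was not tested.

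Other neuronal lists are read against all 15523 tested genes, of which 8.75% fell and 7.93% rose. With the length index as a covariate 2168 of the 15523 fell and 2091 rose. Among these lists, 3 of 18 potassium channel genes fell and 1 rose. Kcnip2, a channel-interacting protein, fell by 0.61, the two-pore channel Kcnk2 by 0.44 and the inward rectifier Kcnj4 by 0.37, while Kcnj3, a G-protein-gated rectifier subunit, rose by 0.59 (SE 0.054 to 0.088). With the length index as a covariate 9 fell and 1 rose. Of 27 glutamate receptor and scaffold genes, 3 fell and 1 rose: the AMPA subunit Gria2 fell by 0.22 and the metabotropic receptors Grm3 and Grm5 by 0.26 and 0.38, and the kainate subunit Grik4 rose by 0.72. With the covariate 11 fell and 3 rose. Of 16 striatal interneuron genes, 2 fell, Th, the dopamine-synthesis enzyme (-0.38), and Pthlh, a peptide hormone of parvalbumin cells (-0.39). With the covariate 5 interneuron genes fell.

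Immediate early genes, switched on by neuronal activity, moved in few members, 1 of 17 higher and 1 lower, with a median of -0.15. Over all tested genes 7.93% were higher and 8.75% lower. Nr4a2, a nuclear receptor also known as Nurr1, stood between 0.681 and 5.36 CPM in zQ175 nZFP libraries (median 2.40) and between 0.318 and 0.977 CPM in WT nZFP libraries (median 0.520). The zQ175 libraries were widely spread, and the groups overlapped (2.08, SE 0.42, adjusted p = 0.00031). Dusp1, a MAP kinase phosphatase, ranged between 16.9 and 37.1 CPM in zQ175 nZFP and between 20.5 and 74.5 CPM in WT nZFP libraries (-0.80, adjusted p = 0.043), and it did not pass with the index in the model (-0.63, adjusted p = 0.083). Fos, Egr1 and Arc did not pass, at -0.31, -0.15 and -0.09.

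Lower genes outside these lists included several with falls of over 4-fold. Gpx6, a glutathione peroxidase, stood between 0.149 and 0.308 CPM in zQ175 nZFP libraries (median 0.248) and between 0.855 and 6.70 CPM in WT nZFP libraries (median 3.27). The groups did not overlap (-3.81, SE 0.34, adjusted p = 9.2e-12). Wnt8b, a Wnt ligand, ranged between 0.0897 and 0.354 CPM in zQ175 nZFP and between 1.5 and 4.78 CPM in WT nZFP libraries (-3.92, SE 0.32, adjusted p = 8.4e-13). Wnt4, another Wnt ligand, fell by 2.44, the membrane serine protease Tmprss6 by 2.35, Vwa7 by 2.33 and the noncoding transcript Abhd11os by 2.30. The interleukin-2 receptor beta chain Il2rb fell by 2.05, the lipid transfer protein Sec14l3 by 1.97, the proton pump subunit Atp6v1c2 by 1.91 and Tmem114 by 1.86. The transporter Slc4a11 fell by 1.79 and the fatty acid receptor Ffar3 by 1.76, and the groups did not overlap for any of these 12 genes.

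Stress and metabolic lists are read against the 16.7% of all tested genes that differed. With the length index as a covariate 4259 of the 15523 genes differed. Of 38 oxidative phosphorylation genes 2 fell, Ndufs3 of complex I (-0.36) and Uqcrb of complex III (-0.50), at a list median of -0.22. With the length index as a covariate 6 fell and 1 rose, at a median of -0.03. Of 14 measured p53 response genes, Cdkn1a, the cell cycle inhibitor p21, fell by 0.57 (SE 0.11), the kinase Plk2 fell by 0.28 and Sesn2 rose by 0.49. Of 14 heat shock genes, Hspa1a rose by 0.56 and Hsp90aa1 by 0.21, the second not without the libraries whose index was below 0 (adjusted p = 0.068). Of 22 cholesterol synthesis genes 3 fell and 1 rose, with Msmo1, a sterol oxidase, at -0.58 and Insig1, which holds back sterol synthesis, at -0.33.

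Marker lists of other cell types moved with genotype in part, while 16.7% of all tested genes differed. Of 12 oligodendrocyte markers 5 fell and 1 rose: the myelin protein Mal fell by 0.53 and the myelin lipid enzyme Ugt8a by 0.55, while Mag rose by 0.22, though not without the libraries whose index was below 0 (adjusted p = 0.17). The summed level of the list was 6991 to 7922 CPM in zQ175 nZFP and 7291 to 11797 CPM in WT nZFP libraries, and WT nZFP replicate 8 was highest for Mag. Of 12 astrocyte markers 5 fell and 1 rose: glutamine synthetase, Glul, ranged between 1182 and 1462 CPM in zQ175 nZFP and between 1646 and 1991 CPM in WT nZFP libraries (-0.45, SE 0.057), the aldolase Aldoc fell by 0.39, and S100b rose by 0.46. The summed astrocyte level was 4513 to 5184 CPM in zQ175 nZFP and 5060 to 6422 CPM in WT nZFP libraries. Both with the length index as a covariate and without the libraries whose index was below 0, 9 of the 12 fell. Of all genes, 2168 of 15523 and 1869 of 15724 fell in these 2 fits. The reactive astrocyte genes Vim and Serpina3n rose by 0.45 and 0.64, 2 of 10 measured.

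Microglial markers gave no call in 16 genes (summed level 726 to 933 CPM in zQ175 nZFP and 790 to 1031 CPM in WT nZFP libraries). Of the 16, 14 had a log2 fold change below 0, at a median of -0.16. With DESeq2, and in the voom fit with mouse as a random block, 2 fell. With the replicate number as a block 8 fell and 1 rose, as 3163 of all 15523 genes fell and 3492 rose. Of 13 disease-associated microglial genes 1 fell, Axl at -0.17. Of 15 interferon response genes 3 rose, among them Irf7 by 0.59 and Usp18 by 0.80, and 1 of the 15 passed without the libraries whose index was below 0 (adjusted p = 0.11 for Irf7 and 0.145 for Usp18). The antigen presentation gene Tapbp rose by 0.30, and the immunoglobulin gene Ighm fell by 0.41. Of 12 endothelial and 10 mural markers, 4 and 2 fell, among them Esam (-0.26) and Tagln (-0.72). With the length index as a covariate 6 and 3 fell. Of all 15523 tested genes 8.75% fell, and 2168 did so with the covariate. Of 7 measured cortical excitatory markers 2 rose, with the upper-layer factor Cux2 between 6.45 and 16.2 CPM in zQ175 nZFP and between 2.28 and 10.2 CPM in WT nZFP libraries (1.23, adjusted p = 0.033), and the summed level of that list was 132 to 155 CPM in zQ175 nZFP and 104 to 148 CPM in WT nZFP libraries. The choroid plexus gene Kl (0.71) and the ependymal gene Ak7 (1.48) rose, in lists with 3 and 7 measured members, Kl not without the libraries whose index was below 0 (0.60, adjusted p = 0.086). Precursor cell, pallidal and septal lists gave no call. The part of such cells in the neuronal differences was not tested.

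**Figure D4:**
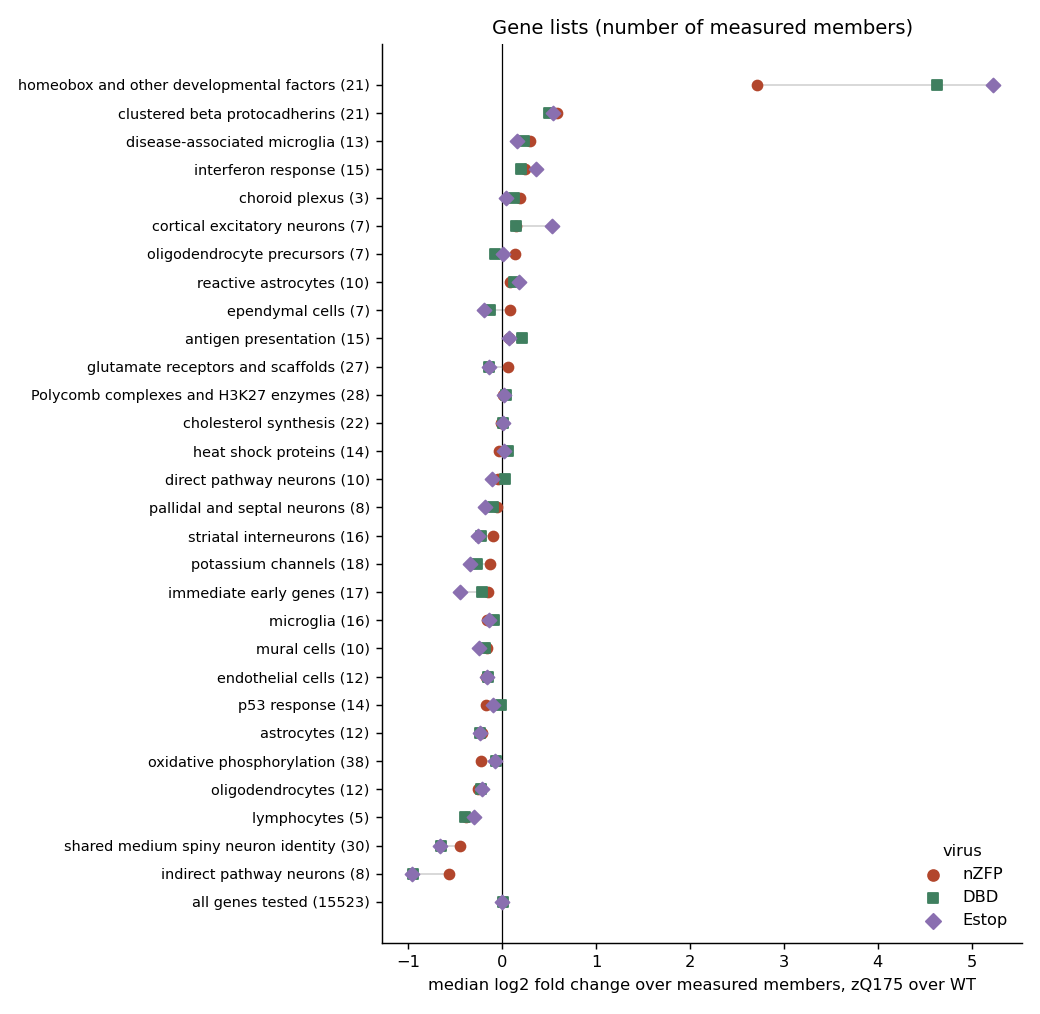
Median log2 fold change of each gene list, zQ175 over WT, under nZFP (red circles), DBD (green squares) and Estop (purple diamonds) in 6M_12M, over the measured members given in brackets. Medians under nZFP lay nearer 0 than under both control viruses for the shared medium spiny neuron genes (-0.45) and the indirect pathway genes (-0.57). They lay farther from 0 for oxidative phosphorylation (-0.22), the p53 response (-0.17) and the beta protocadherins (0.58), among others. The median of the developmental factors (2.72) was also nearer 0, but its members could pass the filter through control libraries alone.

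The genotype difference under nZFP was next set beside those under the control viruses. Under DBD 2838 genes differed (18.3%) and under Estop 2700 (17.4%). Of the genes called under nZFP, 1723 were called in the same direction under DBD, which is 66.6% of the nZFP and 60.7% of the DBD calls, and 1709 under Estop, 66.0% and 63.3%. None was called in opposite directions under DBD, and 1 was under Estop. The 3 comparisons use different libraries, but many are the 2 hemispheres of the same mice, so they are not independent. To set sizes side by side without selecting on nZFP or DBD values, genes were picked by their call under Estop. The 1316 genes called higher there (8.48%) had a median log2 fold change of 0.34 under nZFP and 0.41 under DBD, and 70.3% were nearer 0 under nZFP. The 1384 genes called lower had medians of -0.33 under nZFP and -0.42 under DBD, and 73.6% were nearer 0 under nZFP. Picked under DBD and read against Estop, the nZFP medians were 83.3% and 77.8% of the Estop medians for higher and lower genes. Deviations of same-numbered libraries correlated over 0.1 in 8 of 8 zQ175 and 6 of 6 WT pairs of DBD with Estop. For nZFP with Estop they did so in 5 of 8 zQ175 and 6 of 7 WT pairs. Error shared by the control groups was thus not kept out of either pick, and its part was not tested.

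**Figure D5:**
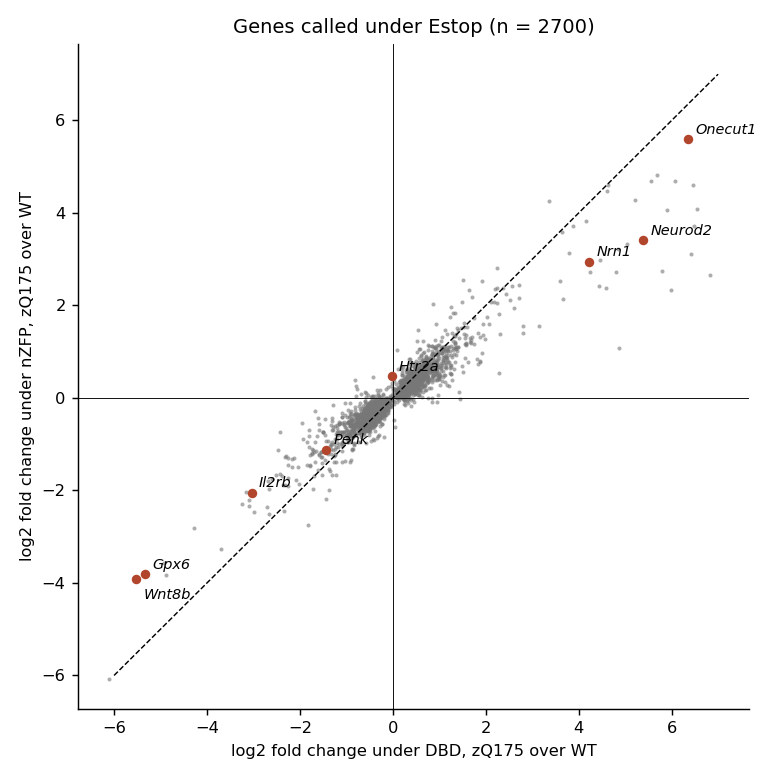
Genotype log2 fold changes (zQ175 over WT) under nZFP on the vertical axis and under DBD on the horizontal axis for the 2700 genes called under Estop; the dashed line marks equal values. The points lie close to the line with a tilt toward the horizontal axis, with medians of 0.34 under nZFP and 0.41 under DBD for higher genes and -0.33 under nZFP and -0.42 under DBD for lower genes.

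The interaction tests asked for single genes whether the genotype difference under nZFP differed from that under a control virus. Against DBD, edgeR called no gene at an adjusted p under 0.05 (643 had an unadjusted p under 0.05), while DESeq2 called 11 and the voom fit with mouse as a random block 57. Against Estop, edgeR called 6 genes of 15523 (0.0387%), 2 with a higher (0.0129%) and 4 with a lower (0.0258%) log2 fold change under nZFP. Nrn1 had a median of 9.40 CPM in zQ175 nZFP libraries, 25.0 CPM in zQ175 DBD and 44.7 CPM in zQ175 Estop libraries, with WT medians of 1.24 CPM under nZFP, 1.5 CPM under DBD and 1.34 CPM under Estop. Its genotype log2 fold change was 2.07 lower under nZFP than under Estop (-2.07, SE 0.32, adjusted p = 0.00092) and 1.28 lower than under DBD (-1.28, SE 0.31, adjusted p = 0.20). Neurod2, below 1 CPM in the mean and so outside the rule for named genes, had zQ175 medians of 1.67 CPM under nZFP, 3.29 CPM under DBD and 8.39 CPM under Estop (-3.10 against Estop, SE 0.56, adjusted p = 0.013). The somatostatin receptor Sstr3 had a log2 fold change of 0.55 under nZFP, not called (edgeR adjusted p = 0.055), and 2.09 under Estop (difference -1.54, SE 0.30). Akain1 had 0.44 under nZFP and 1.27 under Estop (difference -0.83, SE 0.16).

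Ddit4l, an inhibitor of mTOR signalling, fell under nZFP by 1.74 (6.99 to 11.1 CPM in zQ175 nZFP, 25.6 to 36.4 CPM in WT nZFP libraries), against falls of 2.26 under DBD and 2.44 under Estop (difference from Estop 0.70, SE 0.14, adjusted p = 0.039). The call for Ddit4l was lost without any 1 of 12 of the 16 libraries, and those for Nrn1 (-1.71, adjusted p = 0.10) and Akain1 (-0.82, adjusted p = 0.12) without the libraries whose index was below 0. Htr2a, the serotonin 2A receptor, went the other way. It stood between 11.1 and 16.2 CPM in zQ175 nZFP and between 7.14 and 12.9 CPM in WT nZFP libraries (0.48, SE 0.12, adjusted p = 0.0030), with log2 fold changes of -0.03 under DBD and -0.43 under Estop (difference from Estop 0.91, SE 0.17, adjusted p = 0.014). WT medians of Htr2a were 9.32 CPM under nZFP, 6.57 CPM under DBD and 7.13 CPM under Estop.

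Setting nZFP against the mean of both control viruses, a comparison added after the data were seen, called 20 genes (0.129%). Of these, 11 had higher (0.0709%) and 9 lower (0.058%) log2 fold changes under nZFP. Under nZFP 19 of the 20 were nearer 0 than under the controls' mean, read on the same values that picked them. Htr2a was the exception. Among the 20 were Shox2, at 4.69 under nZFP against 6.08 under DBD and 6.06 under Estop (difference -1.38, SE 0.27, adjusted p = 0.017), and Upb1, at -1.28 under nZFP against -2.32 and -2.20 (0.97, SE 0.19, adjusted p = 0.017). Sec14l3 and Ffar3 were likewise nearer 0 (0.66 and 0.82). Without WT nZFP replicate 1 the number of genes called was 10, and without WT nZFP replicate 5 it was 11. It was 12 each without zQ175 nZFP replicates 2 or 7, and 7 without sex in the model. It was 44 with DESeq2, 138 with the length index as a covariate and 172 in the voom fit with mouse as a random block. Without the libraries whose index was below 0 it was 13, and 8 of those were among the 20. For most genes the difference was not told apart from 0. Wt1, for example, had log2 fold changes of 4.61 under nZFP, 4.63 under DBD and 4.65 under Estop, and Rgs4 had -1.09, -1.25 and -0.93.

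Finally, the genotype difference under nZFP was compared with that of 2 other paradigms in 1 fit of all 30 groups. Against 2M_8M, in which mice injected at 2 months also had 6 months of treatment but were collected at 8 months, 85 of 16792 genes differed (0.506%), 29 higher and 56 lower in 6M_12M. In that fit 3925 genes were called under nZFP in 6M_12M and 966 in 2M_8M. On the library scaling of that fit, Wnt8b stood between 0.0937 and 0.370 CPM in zQ175 nZFP and between 1.58 and 4.99 CPM in WT nZFP libraries of 6M_12M, and between 0.542 and 1.58 CPM in zQ175 nZFP and between 0.987 and 2.93 CPM in WT nZFP libraries of 2M_8M. The difference between its log2 fold changes was -3.11 (adjusted p = 1.2e-05). Hrk, which encodes a cell death protein of the BH3 class, had a log2 fold change of -1.20 in 6M_12M and -0.29 in 2M_8M (difference -0.91, adjusted p = 2.2e-06). Cntnap3, an adhesion protein, had -1.23 and -0.01 (difference -1.22), and Zmat4, a zinc finger protein, had -0.85 and -0.16 (difference -0.69). Kazald1 had 2.39 and 0.68 (difference 1.70), Cbx8 0.90 and 0.14 (difference 0.76), the iodide transporter Slc5a5 1.32 and 0.49 (difference 0.83), and Necab3, a calcium-binding protein, 0.70 and -0.19 (difference 0.89). Of the genes described for 6M_12M above, Nrn1, Sfmbt2, Vwa7, Abhd11os, Il2rb, Sec14l3, Ffar3, Drd1, Scn4b and Ddit4l also differed, each farther from 0 in 6M_12M. Penk, Rgs4 and Onecut1 did not pass (adjusted p = 0.11, 0.10 and 0.40).

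Age at injection, age at collection and paradigm move together here and cannot be told apart, and every WT nZFP library of 2M_8M had a negative length index, so a fit of the other libraries alone could not be made. With the index as a covariate 186 genes were higher and 243 lower in 6M_12M. Against 6M_10M, in which mice injected at the same age had 4 months of treatment, edgeR called no gene (lowest adjusted p = 0.070), although 4151 of 16792 genes had an unadjusted p under 0.05, and the voom fit called none. The library of zQ175 nZFP replicate 2 in 6M_10M stood apart by its length index, and without it 1794 genes had an unadjusted p under 0.05 and none passed. The 8 genes named for 2M_8M had log2 fold changes in 6M_10M of -3.71 (Wnt8b), -1.33 (Cntnap3), -1.08 (Hrk), -0.60 (Zmat4), 0.64 (Necab3), 1.10 (Cbx8), 1.22 (Slc5a5) and 2.51 (Kazald1).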

How the data were processed

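Striatal polyA RNA was sequenced as stranded paired-end libraries, per the labels. Per the submitters' processing notes, RSEM on GRCm38 made the deposited expected counts. Versions, annotation release and strand setting were "not given in the sources used here", which leaves antisense, overlapping and paralogous genes uncertain. The other deposited table stayed unused. Of 41135 entries, 6 vector entries (at most 0.669% of a library) were left out. After rounding, the test was that of edgeR 4.0.16 (R 4.3.3; filterByExpr, TMM, robust quasi-likelihood F-test, group and sex as terms, all 46 libraries of 6M_12M in 1 fit; all 233 for differences between paradigms), with Benjamini-Hochberg adjustment over all genes and a threshold of 0.05. CPM are on TMM-scaled library sizes, except for vector entries and Htt.HD. SE values are derived from the F statistic. Within a group each library came from its own mouse, but the 46 libraries came from 24 mice, and edgeR treated the hemispheres of a mouse as independent (correlation within a mouse 0.553 in the voom fit).

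Alternatives were RLE scaling, DESeq2 1.42.0, no filter, the 2 nZFP groups alone, no sex, hemisphere, the replicate number as a block, the length index, voom with mouse as a random block (limma 3.58.1), and leaving out each nZFP library. Those that leave out libraries by length index, leave out zQ175 nZFP replicate 2 of 6M_10M, or average both control viruses were chosen after seeing the data. Named genes were the 12 higher and 12 lower genes with the largest fold change among called genes of at least 1 CPM whose groups did not overlap, Htt, up to 4 members per list with the smallest p, and at most 4 each way in every interaction or paradigm difference; other names were chosen after their values were seen, and some genes the rule picks are not reported here. The 29 lists and the comparison were chosen with earlier results of these data known. The edgeR fit was run on simulated data whose libraries were drawn independently. That run cannot speak to the shared mice, the replicate number or the length index.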

Additional observations from a re-analysis of the deposited data

Results flagged for a closer look

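In 9 of 200 groups of 8 values, 1 sample lay far from the others; chance flags about 1 in 20 groups. In zQ175 nZFP, replicate 1 was lowest for Klf14 (1.71 CPM) and for the length index (-0.0639) and highest for Rbbp7 (136 CPM) and Ndufs3 (115 CPM). Replicate 5 was highest for Vim (48.1 CPM) and lowest for Mal (225 CPM), and replicate 2 was highest for Tagln (17.0 CPM). In WT nZFP, replicate 8 was highest for Mag (327 CPM), and replicate 4 for Usp18 (2.05 CPM).

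Some genotype differences differed between viruses or paradigms, by the test of the difference itself. Those of the genes the rule named for each test follow, and further calls are given above. Between nZFP and Estop the log2 differences were 0.91 for Htr2a, 0.70 for Ddit4l, -2.07 for Nrn1, -0.83 for Akain1 and -1.54 for Sstr3. Between 6M_12M and 2M_8M they were 1.70 for Kazald1, 0.89 for Necab3, 0.76 for Cbx8, 0.83 for Slc5a5, -0.91 for Hrk, -3.11 for Wnt8b, -1.22 for Cntnap3 and -0.69 for Zmat4.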

How the results depend on the processing

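Alternatives were followed by gene for 98 genes, over the genotype difference under nZFP and the differences flagged above. None of the 98 changed sign under any alternative run. Of them, 97 had a call there and 77 held each such call throughout. Calls against the mean of both controls, of Neurod2 against Estop and of other genes against 2M_8M were not followed by gene. Nor were other genes given with a value, such as Foxp1, Bcl11b, Fos and Pax6. Some list medians, most of them near 0, did change sign. With the length index they included the direct pathway (0.01), glutamate (-0.11), Polycomb (-0.01), heat shock (0.04) and reactive astrocyte (-0.01) lists. The lymphocyte median moved from -0.38 to 0.12 with the index and to 0.05 without the filter. Ependymal genes changed sign without libraries of index below 0 (-0.05). Cortical genes did so without the filter (-0.02) and with the 2 nZFP groups alone (-0.01). Disease-associated microglial genes went from 0.29 to -0.05 over members of at least 1 CPM. The genotype counts under nZFP (1231 higher, 1358 lower) moved to 2091 and 2168 with the length index, and to 1880 higher without libraries of index below 0; leaving out 1 library gave 984 to 1326 higher and 1070 to 1516 lower genes. Against DBD (0 and 0), DESeq2 gave 6 higher and 5 lower, the length index 53 and 13, voom 34 and 23, the mean of both controls 11 and 9, and leaving out 1 library 0 to 1 and 0 to 1 (without WT nZFP replicates 1 or 8). Against Estop (2 and 4), DESeq2 gave 10 and 14, the length index 42 and 25, voom 53 and 39, the mean of both controls 11 and 9, libraries of index at least 0 gave 11 higher, no sex 1 higher, and leaving out 1 library 1 to 3 higher and 3 to 6 lower. Against 2M_8M (29 and 56) the length index gave 186 and 243. The causes of these moves were not tested.

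By the rule that every same-numbered pair must correlate over 0.1, replicate numbers do not pair the nZFP samples: correlations of their deviations ran from -0.173 to 0.721, 4 of 8 were over 0.1, and 0 of 8 samples correlated best with their own number. Over all 15 pairs of the 6 groups, 88 of 110 same-numbered pairs were over 0.1, and 4 group pairs had every one over it. The number thus follows a shared difference between libraries in part: replicates 1 to 3 of the DBD and Estop groups all had a negative length index (-0.248 to -0.0617). With the replicate block, higher and lower genes numbered 3492 and 3163 under nZFP, 68 and 15 against DBD, 206 and 57 against Estop, 97 and 131 against 2M_8M, and 1353 and 1323 against 6M_10M; against the mean of both controls it gave 597 genes, and 22 of 38 oxidative phosphorylation genes fell under nZFP (median -0.20). With the replicate block and the length index together they numbered 2381 and 2304 under nZFP, 109 and 27 against DBD, 109 and 35 against Estop, 521 and 448 against 2M_8M, and 71 and 82 against 6M_10M.

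Among the calls followed by gene, some were lost on leaving out at least 1 library. Under nZFP they were those of Eya1, Uqcrb, Tapbp, Esam, Ndufs3, Dusp1, Irf7, Usp18, Mag, Phf1, Cux2, Grm3, Plk2, Pthlh and Hsp90aa1. Against Estop they were those of Ddit4l and Sstr3. Genes near 0 CPM in WT and the Htt.HD entry are limited by few reads.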
